A study of Mus musculus with 2 samples.

Results

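The genes described here are 9 members of the TGF-beta system, namely the ligand genes Tgfb1, Tgfb2 and Tgfb3, the receptor genes Tgfbr1, Tgfbr2 and Tgfbr3, and the matrix genes Tgfbi, Postn and Thbs1. They were chosen by symbol, and each of the 9 was found as exactly 1 of the 32285 genes in both count matrices. The data are single-cell RNA counts of mitral valve leaflets taken from mouse embryos near the end of gestation (E17.5). The mutant library came from embryos with Nfatc1-Cre and loxP sites on both Dicer alleles, and the control library came from wild-type embryos. Each library pooled leaflets of 3 to 4 hearts, so 1 library stands for each genotype. Nfatc1-Cre makes recombinase under control of Nfatc1, a transcription factor gene of valve endocardial cells, and DICER1 cuts precursors into mature microRNAs. No control carrying the Cre or the loxP alleles alone was analysed here.

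TGF-beta ligands are secreted as latent dimers that are held in the matrix until integrins, proteases or thrombospondin-1 release the active part. The ligand is bound by the type II receptor TGFBR2, which activates the type I receptor kinase TGFBR1, and the co-receptor betaglycan, encoded by Tgfbr3, presents ligand and is needed most by TGF-beta2. Activated receptors phosphorylate SMAD2 and SMAD3, which enter the nucleus with SMAD4. In the embryonic mouse heart the pathway takes part in the step by which endocardial cells become the mesenchyme of the valve cushions, and later in the laying down of leaflet matrix. TGFBI and periostin (POSTN) are related secreted matrix proteins, and thrombospondin-1 (THBS1) is a matrix glycoprotein whose gene is itself switched on by TGF-beta in many cells.

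Because the deleted gene makes microRNAs, short sequences complementary to microRNA seeds (bases 2 to 8 of the microRNA) were looked up in the longest annotated 3′ UTR of each member. The 8 let-7 microRNAs let-7a to let-7g and let-7i share 1 seed, and its complement, CTACCTC, was found in 2 members, both receptor genes that were higher in mutant valve endothelial cells (values further on). The mature microRNA is from RefSeq (GRCm38.p6) with its seed in capitals. The stretches of 25 bases around the matches are from GENCODE M21 (GRCm38), written 5′ to 3′ as in the RNA but with T, with the match in capitals. The Tgfbr1 match lies in the 3′ UTR part of exon 9 of 9, at chr4:47410843-47410849 on the plus strand, and the Tgfbr3 match in that of exon 17 of 17, at chr5:107106961-107106967 on the minus strand. Both matches are followed by an A.
mmu-let-7a-5p: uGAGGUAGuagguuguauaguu
Tgfbr1 let-7 match: aggctggttgttCTACCTCactgag
Tgfbr3 let-7 match: tttgtactgtaaCTACCTCatggtt
The same letters were present in 9.06% of the 20874 genes with an annotated 3′ UTR. Long UTRs hold more of any such word, and the UTRs of Tgfbr1 and Tgfbr3, at 4154 and 3069 bases, were longer than the median of 965.5 bases. Both genes also have annotated transcripts with short UTRs of 30 and 217 bases, in which CTACCTC is absent.

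Tgfb2, the remaining signalling gene that was higher in mutant valve endothelial cells, held no let-7 match but 2 matches to TGGTGCT, the complement of the miR-29 seed, in exon 7 of 7 on the minus strand. Tgfbi and Postn, which were lower there, each held 1 match to ATAAGCT, the complement of the miR-21 seed, in exon 17 of 17 and exon 22 of 22 on the plus strand. They are shown as a selection of the matches in members that differed in valve endothelial cells, with the seeds and matches again in capitals.
mmu-miR-29a-3p: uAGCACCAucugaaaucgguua
Tgfb2 miR-29 match, chr1:186623804-186623810: aattggttttttTGGTGCTcatggg
Tgfb2 miR-29 match, chr1:186622816-186622822: tgtccggttttgTGGTGCTctagtg
mmu-miR-21a-5p: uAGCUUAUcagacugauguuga
Tgfbi miR-21 match, chr13:56639184-56639190: aacggcatcactATAAGCTatgagt
Postn miR-21 match, chr3:54390844-54390850: gagatgattgtcATAAGCTtcttgc
TGGTGCT was present in 13.2% and ATAAGCT in 7.22% of all genes with a 3′ UTR, and ATAAGCT was also found in Tgfbr1 and Tgfbr2. TTTGCAC, the complement of the miR-19 seed, was found in Tgfbr2 and Postn, and in 11.5% of all genes. TGCTGCT, the complement of the miR-15/16 seed, was found in Tgfb3, Tgfbr1, Tgfbr2, Tgfbr3 and Thbs1, and in 20.4% of all genes. For Thbs1 it was the only one of the 7 seed families searched with a match. Tgfb1, with a UTR of 135 bases, held none. The shortest annotated UTR of Tgfb2, at 1230 bases, lacks TGGTGCT, and that of Postn, at 153 bases, lacks ATAAGCT. A match is a description of the letters and not evidence of a site in use.

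The mutant library held 69475632 UMIs (unique molecular identifiers, 1 per captured RNA molecule), and 6190 cells with a median of 9497 UMIs were kept. The control library held 70221728 UMIs, and 10297 cells with a median of 5665 UMIs were kept. The libraries shared 19 cell barcodes, 11 of them among kept cells. The pools differed in sex, since 42.5% of mutant cells were female-type and 37.1% male-type, against 93.5% female-type and 1 male-type cell in the control library. Cells were clustered with the members left out and clusters were named from marker genes, which gave 8 classes with at least 50 cells in each library. Valve endothelial-like cells numbered 287 in the mutant and 1199 in the control library, and valve interstitial-like cells 656 and 2419. The 10 endothelial markers summed to 4529 and 3891 CPM (counts scaled to a total of 1000000 in the class) in mutant and control valve endothelial-like cells. In mutant and control valve interstitial-like cells they summed to 110 and 74.0 CPM. These markers were also used to name the clusters, so the sums are a description and not a separate check of the names. The dissected tissue also held coronary endothelial, arterial endothelial, mural, cardiomyocyte and macrophage classes, and stromal clusters without a valve name, called other stromal cells. Dicer1, the targeted gene, stood at 39.0 CPM in mutant and 89.8 CPM in control valve endothelial-like cells, a log2 ratio of mutant over control of −1.20 (95% interval −1.50 to −0.91). Its log2 ratio was −0.52 in valve interstitial-like cells, −0.33 in coronary endothelial-like cells and 0.01 in macrophage-like cells, and 3′-end counts may miss a deletion elsewhere in the gene. All intervals are exact 95% intervals for counting error, which leave out the spread between embryos and libraries. With 1 library per genotype no difference could be tested, and genotype, pool, sex makeup and preparation cannot be told apart.

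The members divided between endothelial and stromal cells in both libraries. Tgfb1, Tgfbr2 and Tgfbr3 were higher in endothelial cells, and Tgfb2, Tgfb3, Tgfbr1, Tgfbi, Postn and Thbs1 in stromal cells. Over all endothelial against all stromal cells the log2 ratio of Tgfb1 was 2.56 in the mutant and 2.43 in the control library, that of Tgfbr2 was 1.65 and 1.68, and that of Tgfbr3 was 1.55 and 1.85. The steepest stromal bias was that of Postn, at −5.30 in the mutant and −3.77 in the control library. Tgfbi stood at −3.97 and −2.44, Thbs1 at −3.84 and −3.63, Tgfb3 at −3.43 and −3.23, and Tgfb2 at −2.26 and −1.96. Tgfbr1 had the smallest stromal bias, at −1.26 and −1.47. These sums follow the mix of classes, and valve endothelial-like cells made up 4.64% of mutant and 11.6% of control cells.

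**Figure D1:**
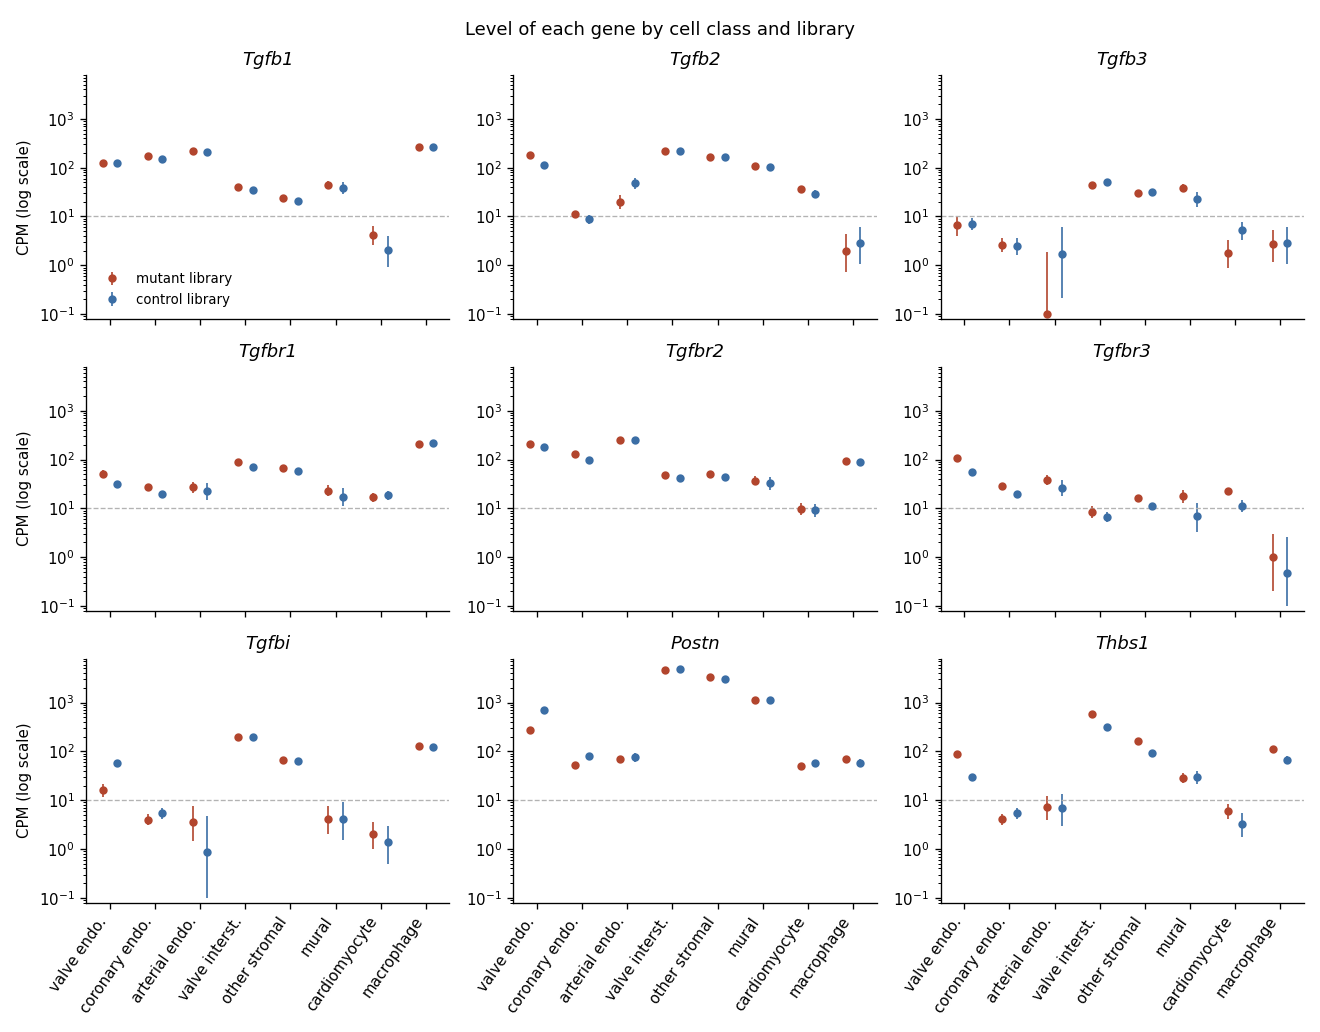
Level of each of the 9 members (CPM, log axis) in the 8 cell classes, with the mutant library left of the control library in each pair and bars for the exact 95% counting interval. A level of 0 is drawn at the foot of the axis, and the dashed line marks 10 CPM, under which no ratio is called. Tgfb1 and Tgfbr2 are high across the endothelial classes, whereas Postn, Tgfbi and Thbs1 peak in valve interstitial-like cells.

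Among the ligands, Tgfb1 was highest in macrophage-like cells, at 268 CPM in the mutant and 266 CPM in the control library. Arterial endothelial-like cells followed at 215 and 213 CPM, coronary endothelial-like cells at 172 and 154 CPM, and valve endothelial-like cells at 123 and 125 CPM. The order of these 4 classes was the same in both libraries, and the counting intervals of neighbours did not overlap. Tgfb1 stayed at or under 43.9 CPM in mural-like, valve interstitial-like, other stromal and cardiomyocyte-like cells of both libraries.

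Tgfb2, the ligand whose loss in mice disturbs valve formation, was highest of the 8 classes in valve interstitial-like cells, at 221 CPM in the mutant and 217 CPM in the control library. Other stromal cells had 169 CPM in the mutant and 168 CPM in the control library. In valve endothelial-like cells Tgfb2 reached 181 CPM in the mutant and 115 CPM in the control library. This class thus stood next to valve interstitial-like cells in the mutant order but after other stromal cells in the control order. In the mutant library, however, the counting intervals of valve endothelial-like and other stromal cells overlapped (166 to 197 and 162 to 175 CPM). Coronary endothelial-like cells had 11.1 CPM in the mutant and 8.74 CPM in the control library, and arterial endothelial-like cells 19.7 and 47.4 CPM. Smaller endothelial groups lay between coronary and valve cells, with 59.6 CPM in mutant and 33.1 CPM in control lymphatic endothelial-like cells and 67.0 and 94.3 CPM in cluster 16, led by Aplnr and Vwf. The log2 ratio of valve over coronary endothelial-like cells was 4.02 in the mutant and 3.72 in the control library. Tgfb3 was also highest in valve interstitial-like cells, at 44.2 CPM in the mutant and 51.1 CPM in the control library, and it stayed under 10 CPM in the 3 endothelial classes of both libraries.

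The receptors differed in where they were found. Tgfbr1 was highest in macrophage-like cells, at 205 CPM in the mutant and 220 CPM in the control library, and next in valve interstitial-like cells, at 88.9 and 70.7 CPM. Of the 8 classes Tgfbr2 was highest in arterial endothelial-like cells, at 256 and 252 CPM, and next in valve endothelial-like cells, at 211 and 182 CPM. The smaller group of lymphatic endothelial-like cells had 281 CPM in the mutant and 248 CPM in the control library. The Tgfbr2 level in valve interstitial-like cells was 48.2 CPM in the mutant and 42.3 CPM in the control library. Tgfbr3 was highest in valve endothelial-like cells, at 108 CPM in the mutant and 55.7 CPM in the control library, and had 8.46 and 6.68 CPM in valve interstitial-like cells. Valve endothelial-like cells thus carried more Tgfbr2 and Tgfbr3 by CPM than valve interstitial-like cells, and fewer of Tgfbr1. 3′-end counting gives 1 UMI per captured molecule whatever the transcript's length, so these CPM values are not scaled to length, and levels are compared between cells for 1 gene at a time.

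Of the matrix genes, and over the 8 classes, Postn was highest in valve interstitial-like cells, at 4729.7 CPM in the mutant and 4915 CPM in the control library, and every mutant and 99.7% of control cells of the class held a UMI. Other stromal cells had 3363 and 2995 CPM, and mural-like cells 1152 and 1130.0 CPM. Tgfbi was highest in the same class, at 199 CPM in the mutant and 201 CPM in the control library, followed by macrophage-like cells at 130 and 122 CPM. Of the 8 classes Thbs1 was highest there too, at 573 CPM in the mutant and 321 CPM in the control library, followed by other stromal cells at 160 and 92.3 CPM. Relative to other stromal cells, valve interstitial-like cells were set apart by Thbs1 (log2 ratio 1.84 in the mutant and 1.80 in the control library) and Tgfbi (1.61 and 1.63) more than by Postn (0.49 and 0.71).

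Mutant and control valve endothelial-like cells differed in most members. The largest differences were in the matrix genes, where Thbs1 was 3.04-fold higher and Tgfbi 3.62-fold and Postn 2.50-fold lower in the mutant library. Tgfbr3, Tgfbr1 and Tgfb2 were 1.94-fold, 1.67-fold and 1.57-fold higher, whereas Tgfb1 and Tgfbr2 differed by less than 1.5-fold. Of the 8 members with a mean of at least 10 CPM, 4 thus passed 1.5-fold upward and 2 downward, while 7.64% of the 8638 genes of the class at that level were higher by this rule and 4.77% lower. Tgfb3 was under 10 CPM.

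**Figure D2:**
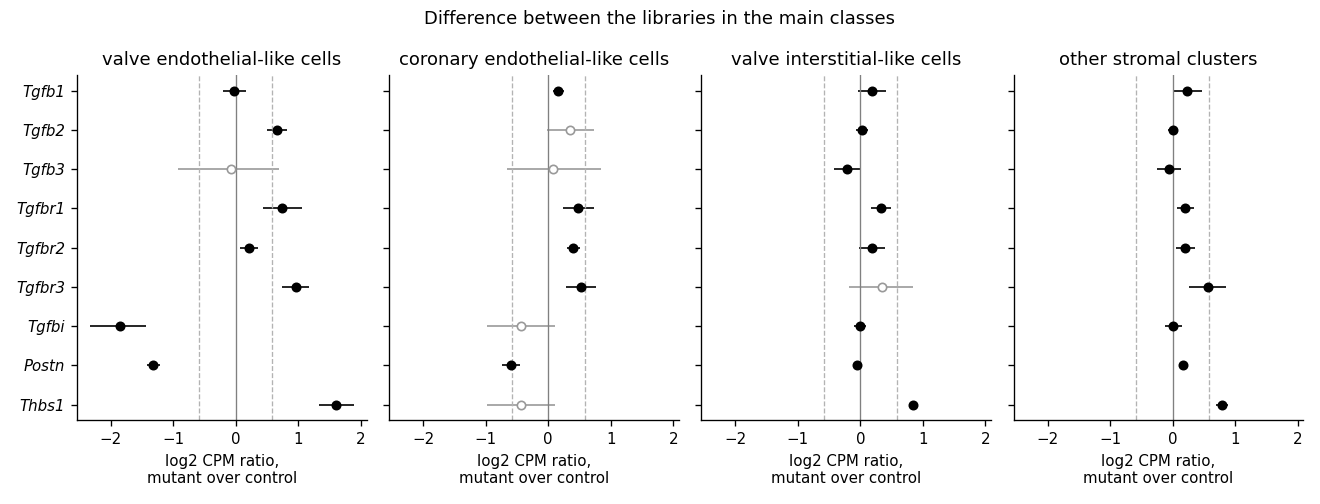
Log2 ratio of mutant over control CPM for each member in each class, with the exact 95% counting interval. Dashed lines mark 1.5-fold and open grey points members under 10 CPM. Among members at 10 CPM or more, valve endothelial-like cells hold the widest spread, between −1.85 for Tgfbi and 1.61 for Thbs1, whereas valve interstitial-like cells hold 1 member past 1.5-fold, Thbs1 at 0.84.

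The ligands behaved unlike each other in valve endothelial-like cells. Tgfb2 had 543 UMIs in mutant and 746 UMIs in control cells, which gave 181 and 115 CPM and a log2 ratio of 0.65 (0.49 to 0.81). It came under 1.5-fold in 5 alternatives, at 0.53 both without doublet removal and with equal cluster weights, 0.54 with cells classed one by one, 0.48 by mean per-cell CPM and 0.37 in male-type mutant against female-type control cells. Tgfb1 stood at 123 CPM in mutant and 125 CPM in control cells, a log2 ratio of −0.02 (−0.21 to 0.16). Tgfb3 stood at 6.68 CPM in mutant and 7.11 CPM in control cells.

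The co-receptor and the signalling kinase were the receptors that differed. Tgfbr3 stood at 108 CPM (96.4 to 120) in mutant and 55.7 CPM (50.1 to 61.7) in control valve endothelial-like cells, and its log2 ratio was 0.95 (0.73 to 1.17). Tgfbr1 stood at 51.7 CPM (43.9 to 60.5) in mutant and 30.9 CPM (26.8 to 35.5) in control cells, a log2 ratio of 0.74 (0.43 to 1.05). Tgfbr2, the ligand-binding receptor, stood at 211 and 182 CPM, a log2 ratio of 0.21 (0.07 to 0.35). Tgfbr1 and Tgfbr3 hold the let-7 match shown above, whereas Thbs1 and Tgfb2 were also higher and hold none, and all 3 receptor genes hold TGCTGCT. Whether microRNA loss has a part in these differences was not tested. In GENCODE M21, 3 predicted genes (Gm43422, Gm43423 and Gm42900) overlap Tgfbr3 on the same strand, so its count depends on how shared reads were assigned.

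The 3 matrix genes differed in opposite directions in valve endothelial-like cells. Thbs1 had 268 UMIs in mutant and 190 UMIs in control cells, which gave 89.4 and 29.4 CPM and a log2 ratio of 1.61 (1.33 to 1.88). Postn had 829 UMIs in mutant and 4470 UMIs in control cells, which gave 277 and 691 CPM and a log2 ratio of −1.32 (−1.43 to −1.21). Tgfbi had 48 UMIs in mutant and 378 UMIs in control cells, which gave 16.02 and 58.5 CPM and a log2 ratio of −1.85 (−2.33 to −1.43). Postn and Tgfbi encode related proteins and were both lower, and the counting intervals of the levels in the libraries did not overlap for any of the 3 genes. No single cell carried the differences, since without the cell with most UMIs in each library the log2 ratios were 1.57 for Thbs1, −1.36 for Postn and −1.97 for Tgfbi.

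The shares of cells with a UMI followed the same directions once depth was made equal. After thinning each cell to 2000 UMIs, 10.9% of mutant and 4.69% of control valve endothelial-like cells held a Thbs1 UMI, against 25.1% and 9.34% as counted. For Tgfbr3 the thinned shares were 18.9% and 10.6%, and for Tgfbr1 10.9% and 6.02%. Postn was held by 31.5% of mutant and 51.5% of control cells after thinning, against 65.9% and 71.8% as counted. Tgfbi was held by 2.97% and 9.62%, against 10.5% and 19.2% as counted. Thinning left out 10 mutant and 51 control cells below 2000 UMIs. Macrophage-like cells, which should lack Postn, held it in 13.7% of mutant and 10.8% of control cells after thinning, and in 39.9% and 22.5% as counted at median depths of 9216.5 and 4627 UMIs. The median depths of valve endothelial-like cells were 10270 and 5192 UMIs.

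Stromal RNA outside its cells can give such counts, so each matrix gene was set against the summed UMIs of 5 stromal markers (Col1a1, Col1a2, Col3a1, Dcn and Lum) in the same cells. Per 1000 stromal marker UMIs, valve endothelial-like cells held 335 Postn UMIs (309 to 363) in the mutant and 662 (638 to 688) in the control library. Valve interstitial-like cells held 367 and 337, and coronary endothelial-like, arterial endothelial-like, macrophage-like and cardiomyocyte-like cells between 216 and 312. In the mutant library the proportion in valve endothelial-like cells was thus under that of valve interstitial-like cells. It was above the 250 of coronary endothelial-like, 247 of arterial endothelial-like, 276 of macrophage-like and 291 of cardiomyocyte-like mutant cells. In the control library valve endothelial-like cells held more than each of these classes. For Tgfbi the proportions were 19.4 (14.3 to 25.8) in mutant and 56.0 (50.4 to 62.1) in control valve endothelial-like cells, against 15.5 and 13.8 in mutant and control valve interstitial-like cells. For Thbs1 they were 108 (95.2 to 123) and 28.1 (24.2 to 32.5), against 44.4 and 22.0. The 5 markers themselves summed to 825 CPM in mutant and 1044 CPM in control valve endothelial-like cells, and to 253 and 274 CPM in macrophage-like cells. The part of free RNA in these levels was not otherwise tested. Erythroid markers, 7 genes, summed to 18.7 CPM in mutant and 545 CPM in control valve endothelial-like cells, and their part in the results was not tested.

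Female-type and male-type mutant cells, which come from different embryos of the pool, gave the same directions for these 6 members. Postn stood at 245 CPM in the 153 female-type and 331 CPM in the 107 male-type mutant valve endothelial-like cells, against 694 CPM in the 1161 female-type control cells. Thbs1 stood at 83.5 and 71.5 CPM in female-type and male-type mutant cells, against 28.7 CPM in female-type control cells, and Tgfbr3 at 101 and 117 CPM, against 54.7 CPM. Tgfbr1 stood at 53.7 and 48.2 CPM, against 31.2 CPM. Tgfbi stood at 7.93 and 21.4 CPM, against 58.5 CPM, and the intervals of the female-type and male-type mutant cells did not overlap (4.22 to 13.6 and 13.7 to 31.9). Tgfb2 stood at 205 and 149 CPM, against 115 CPM, which puts the male-type mutant cells under 1.5-fold.

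The valve endothelial-like class was made of cluster 7, led by Npr3 and Plvap, and cluster 13, led by Wnt4 and Pthlh, and the members separated them. In the control library the log2 ratio of cluster 13 over cluster 7 was 2.23 for Thbs1, 1.72 for Postn and 0.48 for Tgfb2, and −1.86 for Tgfbi, −1.84 for Tgfbr3 and −0.94 for Tgfbr2. In the mutant library the same ratio was 2.09 for Thbs1, 0.89 for Postn, 2.14 for Tgfb2, 0.90 for Tgfbi, −2.48 for Tgfbr3 and −0.46 for Tgfbr2. Tgfb1 and Tgfbr1 differed little between the clusters, by at most 0.25 on the log2 scale in either library.

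Several genotype differences were unequal between these clusters. Tgfb2 stood at 335 CPM in mutant and 140 CPM in control cells of cluster 13, a log2 ratio of 1.26 (1.04 to 1.47), but at 76.0 CPM in mutant and 100 CPM in control cells of cluster 7, a log2 ratio of −0.40 (−0.69 to −0.12). In cluster 7 female-type mutant cells had 56.5 CPM of Tgfb2 and male-type mutant cells 98.0 CPM, against 99.0 CPM in female-type control cells, so the lower level lay in the female-type cells. In cluster 13 they had 394 and 236 CPM, against 143 CPM. Tgfbi stood at 11.8 CPM in mutant and 80.6 CPM in control cells of cluster 7, a log2 ratio of −2.74 (−3.48 to −2.13), but at 22.1 CPM in both libraries in cluster 13. The lower Tgfbi of the class thus lay in cluster 7, where control cells had most of it. Postn was lower in both, at 205 CPM in mutant and 369 CPM in control cells of cluster 7 and at 381 and 1219.8 CPM in cluster 13. Thbs1 was higher in both, with log2 ratios of 1.65 in cluster 7 and 1.51 in cluster 13. Tgfbr1 was also higher in both, at 0.79 and 0.67. Tgfbr3 stood at 162 CPM in mutant and 76.6 CPM in control cells of cluster 7, and at 28.7 and 21.2 CPM in cluster 13. Cluster 7 held 194 mutant and 783 control cells and cluster 13 held 93 and 416. No difference between the clusters was tested.

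**Figure D3:**
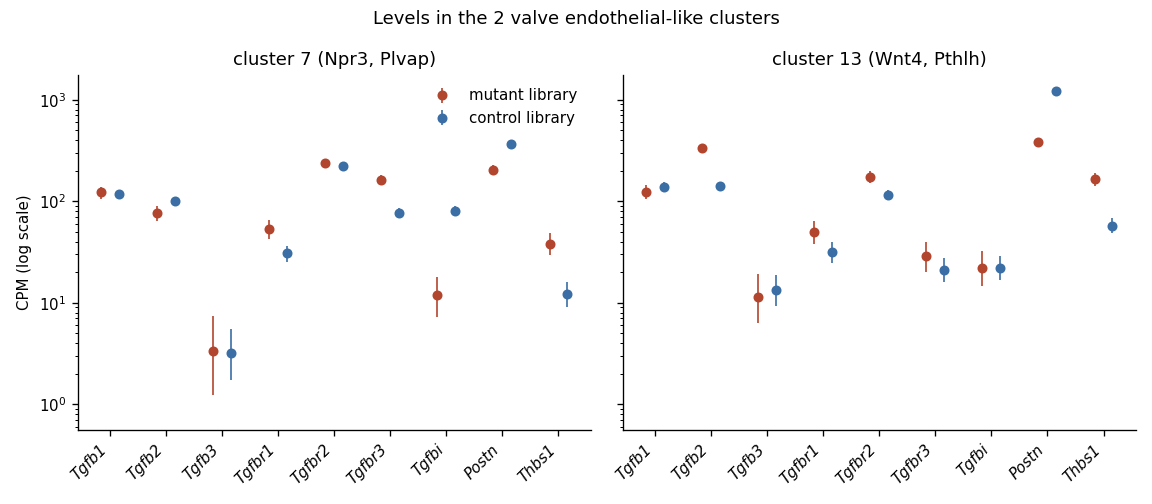
Level of the members (CPM, log axis) in cluster 7 and cluster 13 of the valve endothelial-like cells, mutant left of control, with the exact 95% counting interval. Tgfb2 is higher in the mutant library in cluster 13, at 335 against 140 CPM, and Tgfbi is lower in cluster 7, at 11.8 against 80.6 CPM.

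Valve interstitial-like cells, which make the leaflet matrix, differed in 1 member. Thbs1 was 1.79-fold higher in the mutant library, while Postn, Tgfbi and Tgfb2 stood at nearly equal levels in the libraries. By the rule of 1.5-fold at 10 CPM, 1 of 8 members was higher and 0 lower, beside 2.89% and 1.63% of 8514 genes. Thbs1 had 573 CPM (555 to 592) in mutant and 321 CPM (311 to 330.5) in control cells, a log2 ratio of 0.84 (0.77 to 0.90), and was held by 52.6% of mutant and 35.8% of control cells after thinning, against 82.5% and 57.2% as counted. The log2 ratio was −0.06 for Postn, −0.01 for Tgfbi, 0.03 for Tgfb2 and −0.21 (−0.42 to −0.01) for Tgfb3. It was 0.33 (0.18 to 0.48) for Tgfbr1, and 0.19 for both Tgfb1 and Tgfbr2.

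The 2 clusters of this class again differed. In cluster 1, led by Col9a1 and Prss35, Thbs1 stood at 584 CPM in mutant and 295 CPM in control cells, and in cluster 5, led by Car3 and Tagln, at 560.0 and 353 CPM. Tgfbr1 stood at 115 CPM in mutant and 75.1 CPM in control cells of cluster 1, a log2 ratio of 0.61 (0.42 to 0.80), and at 56.4 and 65.3 CPM in cluster 5, a log2 ratio of −0.21 (−0.49 to 0.06). Tgfb1 stood at 51.7 and 34.7 CPM in cluster 1, a log2 ratio of 0.58 (0.29 to 0.86), and at 25.3 and 35.8 CPM in cluster 5, a log2 ratio of −0.50 (−0.91 to −0.11). Tgfbi separated the clusters in both libraries, at 266 CPM in mutant and 291 CPM in control cells of cluster 1 and at 115 and 87.4 CPM in cluster 5.

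In other stromal cells Thbs1 was again the member that differed, at 160 CPM in mutant and 92.3 CPM in control cells, a log2 ratio of 0.79 (0.69 to 0.89). It was the 1 member of 9 at least 1.5-fold higher, with 0 lower, beside 0.66% and 0.531% of 8482 genes, but with cells classed one by one from their markers the log2 ratio was 0.39. Tgfbr3 came next at 16.5 CPM in mutant and 11.2 CPM in control cells, a log2 ratio of 0.56. Postn stood at 3363 and 2995 CPM, a log2 ratio of 0.17. Thbs1 was higher in each of the 3 clusters, with log2 ratios of 0.84 in cluster 4 (led by Hist1h1b and Prc1), 0.51 in cluster 6 (led by Smim41 and Clec3b) and 0.86 in cluster 8 (led by Dpep1 and Sfrp2). It stood at 192 CPM in female-type and 129 CPM in male-type mutant cells, against 93.4 CPM in female-type control cells. The stromal cluster 2, which the marker rule left unnamed, had 145 CPM of Thbs1 in mutant and 74.9 CPM in control cells.

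**Figure D4:**
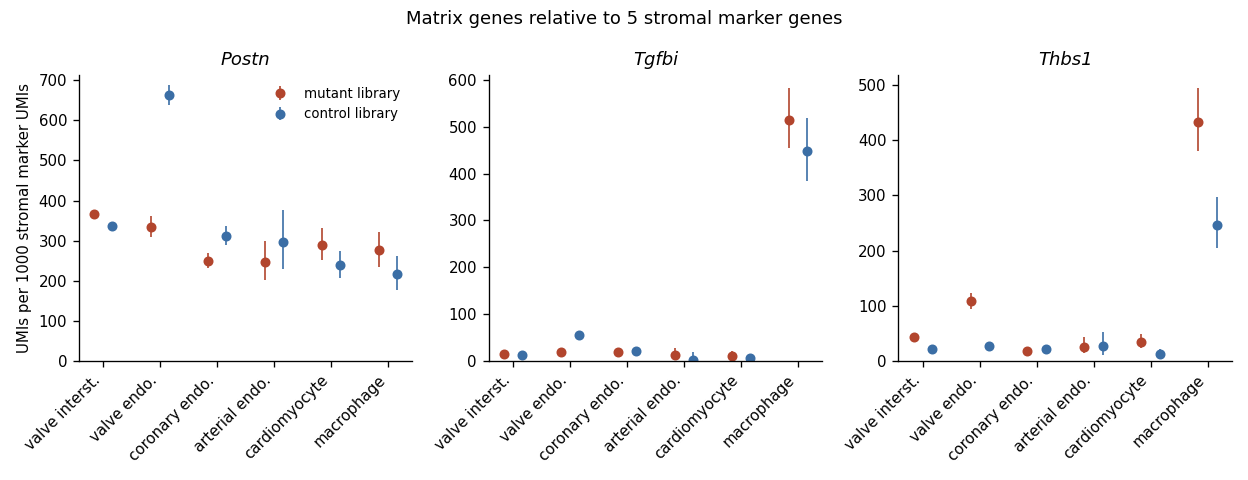
UMIs of Postn, Tgfbi and Thbs1 per 1000 UMIs of 5 stromal markers, by class, mutant left of control, with the exact 95% interval (linear axis). Mutant valve endothelial-like cells hold 335 Postn UMIs per 1000, beside 367 in mutant valve interstitial-like cells, and control valve endothelial-like cells hold 662.

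In coronary endothelial-like cells 5 of the 9 members reached a mean of 10 CPM. Their median log2 ratio was 0.40, beside 0.03 over all genes of the class. By the rule of 1.5-fold 0 were higher and 1 lower, beside 0.483% and 0.297% of 8077 genes. The lower one was Postn, at 53.5 CPM in mutant and 80.7 CPM in control cells, a log2 ratio of −0.59 (−0.73 to −0.45). Per 1000 stromal marker UMIs it stood at 250 and 312, beside 276 and 216 in macrophage-like cells, and 5 stromal markers summed to 214 CPM in mutant and 259 CPM in control cells. After thinning, 11.1% of mutant and 12.9% of control cells held a Postn UMI, beside 13.7% and 10.8% of macrophage-like cells, and the part of free RNA in this difference was not tested. Without doublet removal the log2 ratio was −0.19. The receptors Tgfbr1, Tgfbr2 and Tgfbr3 had log2 ratios of 0.48, 0.40 and 0.52, all under 1.5-fold, and Tgfb1 had 0.16.

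Arterial endothelial-like cells had 0 members higher and 1 of 6 lower, beside 4.29% and 4.75% of 8001 genes. It was Tgfb2, with 38 UMIs in mutant and 55 UMIs in control cells, or 19.7 and 47.4 CPM, a log2 ratio of −1.26 (−1.90 to −0.64). Tgfb1 and Tgfbr2 had log2 ratios of 0.01 and 0.02 there.

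In mural-like cells, which wrap small vessels, 2 of 8 members were higher and 0 lower, beside 4.44% and 3.14% of 8500 genes. Tgfb3 stood at 38.5 CPM in mutant and 22.9 CPM in control cells, a log2 ratio of 0.73 (0.16 to 1.36), and Tgfbr3 at 17.8 and 6.95 CPM on 43 and 10 UMIs. In cardiomyocyte-like cells Tgfbr3 was the 1 of 4 members that was higher, at 22.4 CPM in mutant and 11.4 CPM in control cells, and 0 were lower, beside 1.23% and 1.62% of 7330 genes. In macrophage-like cells Thbs1 was the 1 of 6 members that was higher, at 109 CPM in mutant and 67.6 CPM in control cells, and 0 were lower, beside 2.98% and 2.81% of 8010 genes. Its proportion to stromal markers there, 433 and 247 per 1000, was far above that of valve interstitial-like cells. Markers of other blood cells also differed in the macrophage-like class. Granulocyte markers summed to 970 CPM in mutant and 389 CPM in control cells, and monocyte or dendritic markers to 6857 and 4651 CPM. Erythroid markers summed to 26.0 and 2012 CPM. The part of such cells or their RNA in the Thbs1 difference of this class was not tested. Among the 8 classes Thbs1 reached 10 CPM in 5 and was higher in 4 of them, mural-like cells excepted at 29.0 CPM in mutant and 29.9 CPM in control cells. It was not higher in 3 smaller groups of cells, at 98.3 CPM in mutant and 143 CPM in control epicardial-like cells, 187 and 203 CPM in lymphatic endothelial-like cells, and 690 and 1324 CPM in granulocyte-like cells. Other small groups went both ways. Thbs1 stood at 183 CPM (34 UMIs) in mutant and 3.41 CPM (1 UMI) in control melanocyte-like cells. In lymphoid-like cells it stood at 32.8 CPM (10 UMIs) and 0 CPM. Unnamed clusters 18 and 14 had 22.7 and 236 CPM, and 251 and 329 CPM.

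Thbs1 is also among the genes switched on quickly when cells are handled or stimulated, so a list of 19 immediate early genes that holds no member was measured in the same cells. In valve endothelial-like cells 4 of the 17 measured at 10 CPM were higher and 0 lower, beside 7.64% and 4.77% of all genes of the class. The median log2 ratio was 0.41, beside 0.05 over all genes. The list summed to 3038 CPM in the mutant and 2233 CPM in the control library. In valve interstitial-like cells 7 of 17 were higher and 0 lower, beside 2.89% and 1.63% of all genes. The median there was 0.51, beside 0.03 over all genes, and the sums were 4629 and 3652 CPM. In other stromal cells 1 of 17 was higher and 0 lower, beside 0.66% and 0.531% of all genes. The median there was 0.08, beside 0.01 over all genes, and the sums were 3311 and 3151 CPM. The higher one was Klf4, with a log2 ratio of 0.63 (0.46 to 0.81), and that of Thbs1 was 0.79. The part of this response in the Thbs1 difference was not tested in any class.

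The other genes of the pathway, 67 in 5 lists, showed where else mutant and control valve endothelial-like cells differed. Of the 46 measured at 10 CPM, 8 were higher and 4 lower by 1.5-fold, beside 7.64% and 4.77% of all genes of the class. Their median log2 ratio was 0.17, beside 0.05 over all genes of the class. Among genes of latency and activation 2 of 13 were higher and 0 lower. They were Itgav, an integrin subunit that binds latent TGF-beta, at 96.5 CPM in mutant and 37.9 CPM in control cells, and Fbn1, a microfibril gene that anchors the latent complex, at 428 and 277 CPM. None of the 8 measured genes of receptor and Smad signalling passed 1.5-fold, and their median was 0.04.

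Negative regulators went both ways in these cells, with 3 of 10 higher and 2 lower, beside 7.64% and 4.77% of all genes of the class. Skil, a repressor of SMAD-driven transcription, stood at 152 CPM in mutant and 78.7 CPM in control cells, and Tgif1, another SMAD corepressor, at 43.1 and 24.9 CPM. Bambi, a decoy receptor, stood at 22.7 and 49.9 CPM. Of other target genes 3 of 11 were higher and 1 lower. Ccn2 and Ccn1, matricellular genes, stood at 70.8 CPM in mutant and 22.0 CPM in control cells and at 103 and 43.8 CPM, and Igfbp3, which encodes an IGF-binding protein, at 13.7 and 39.1 CPM. Of the 4 measured relatives of the matrix members 1 was lower, the thrombospondin family gene Comp, at 5.67 CPM in mutant and 15.9 CPM in control cells.

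**Figure D5:**
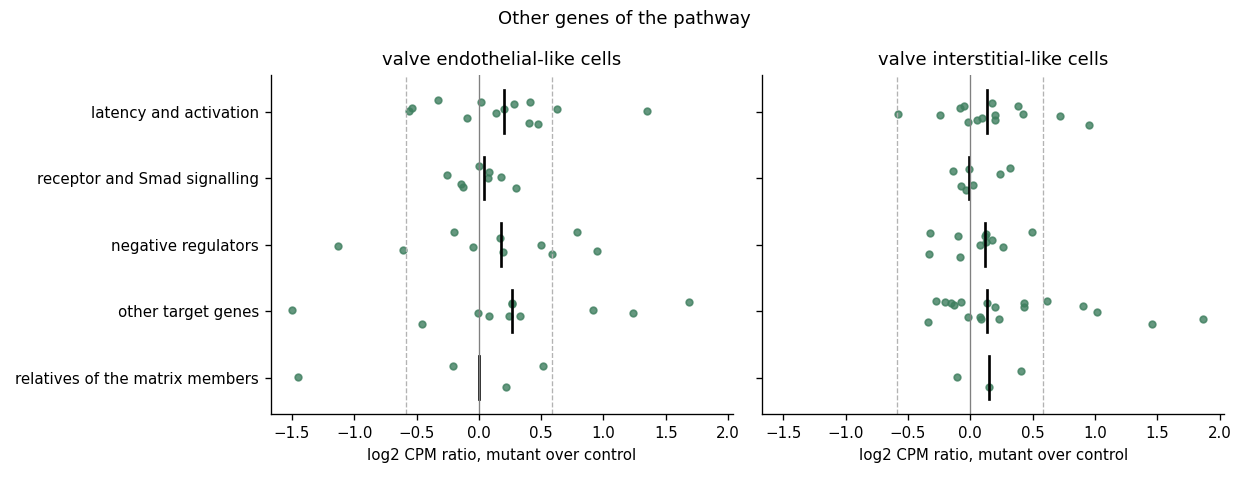
Log2 ratio of mutant over control CPM of the other pathway genes with a mean of at least 10 CPM, by list, in valve endothelial-like and valve interstitial-like cells. Each point is a gene, black bars are list medians and dashed lines mark 1.5-fold. Points past the lines in valve interstitial-like cells lie on the higher side, 7 of 54 genes, whereas valve endothelial-like cells have 8 higher and 4 lower of 46. Of all genes, 2.89% were higher and 1.63% lower in valve interstitial-like cells, and 7.64% and 4.77% in valve endothelial-like cells.

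In valve interstitial-like cells 7 of 54 measured pathway genes were higher and 0 lower, beside 2.89% and 1.63% of all genes of the class. Their median log2 ratio was 0.11, beside 0.03 over all genes of the class. The 2 of 14 higher genes of latency and activation were Itgb8, an integrin subunit that activates latent TGF-beta, at 44.0 CPM in mutant and 22.8 CPM in control cells, and Furin, the protease that cuts the precursor, at 73.3 and 44.6 CPM. Of other target genes 5 of 19 were higher. Among them Cdkn1a, a cell cycle inhibitor gene also driven by p53, stood at 43.9 CPM in mutant and 12.02 CPM in control cells, and Junb, which is also on the immediate early list, at 311 and 154 CPM. None of the 7 measured genes of receptor and Smad signalling, of the 11 negative regulators or of the 3 relatives passed 1.5-fold. Other stromal cells had 1 of 56 higher and 0 lower, beside 0.66% and 0.531% of all genes. The higher one was Cdkn1a, at 14.0 CPM in mutant and 7.17 CPM in control cells. Coronary endothelial-like cells had 1 of 42 higher and 1 lower, beside 0.483% and 0.297% of all genes. The higher one was Itgav, at 23.7 CPM in mutant and 13.8 CPM in control cells. The lower one was the microfibril gene Fbn2, at 10.1 and 15.99 CPM.

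The members' patterns over the 8 classes and 2 libraries, 16 points on the log2(CPM + 1) scale, are given as Pearson correlations, which share libraries and are descriptions only. Postn was most like the collagen genes Col1a2 and Col3a1, both at r = 0.98. Tgfb1 was most like Necap2 and Pnp (both 0.98), Tgfb2 like Bcl9l (0.97) and Sesn3 (0.96), and Tgfb3 like Clip3 and Tmem45a (both 0.96). Tgfbr1 was most like Serp1 and Igsf8 (both 0.95), Tgfbr2 like Mapk3 and Bnip2 (both 0.98), and Tgfbr3 like Prnp (0.95) and Pdlim1 (0.94). Tgfbi was most like Gas7 (0.97) and Colec12 (0.96), and Thbs1 like Myof and Selenos (both 0.94). Among the members themselves the closest pairs were Tgfb3 with Postn (0.93), Tgfb1 with Tgfbr2 (0.90) and Tgfbi with Thbs1 (0.89), and the most opposed were Tgfbr1 and Tgfbr3 (−0.64).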

How the data were processed

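The deposited matrices hold raw UMI counts per gene and cell barcode, which the authors produced by Cell Ranger 5.0.0 against mm10 according to the submitters' processing notes, starting from 3′-end libraries of viability-sorted cells, per the labels' protocols. The counting options and annotation release are not given in the sources used here. Barcodes needed a minimum of 500 genes and 1000 UMIs and a mitochondrial share below 20%. The mitochondrial limit removed 16.8% of mutant and 11.4% of control barcodes. Scrublet (scanpy 1.11.5) removed 3.33% of mutant and 4.29% of control cells as doublets, below the expected 5.12% and 8.61%, so doublets remain. Both libraries were clustered together with Leiden (leidenalg 0.10.2) at resolution 0.8 on 30 principal components and 15 neighbours, from 2000 variable genes less the 5 members among them (1995). A cluster took a name if it showed 3 or more markers of that name, each in 10% of cells or more and 1.5-fold above the other clusters, and led the next name by 1 log2. This scoring was set after the data were seen.

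CPM values were made from UMI counts added up over the cells of a class in a library. Log2 ratios have 0.5 counts added and exact conditional Poisson intervals. CPM values have exact Poisson intervals and shares Clopper-Pearson intervals, all at 95%. A member was called higher or lower at 1.5-fold with a mean of at least 10 CPM. The script for the ratios was tested on simulated counts. Female-type cells held Xist UMIs without any from 4 Y-linked genes (Ddx3y, Eif2s3y, Kdm5d, Uty), and male-type cells the reverse. Positions come from GENCODE M21 on GRCm38, and 3′ UTRs are the annotated sequence after the stop codon. Seeds were searched on the RNA strand, and the families searched were let-7, miR-15/16, miR-17, miR-19, miR-21, miR-29 and miR-126. The miR-17 and miR-19 words overlap in Tgfbr2.

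The members, the pathway lists and the immediate early list were chosen with earlier results of these data known. All 9 members are named in the main classes, and of each pathway list up to 3 genes with the largest ratios past the rule. Of the genes this names, 1 is not reported here. For each member the 2 genes of highest correlation with a level of at least 50 CPM in some class are named. Alternatives were other cell filters, no doublet removal, other clusterings and classes, other floors and summaries, and single sexes.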

Additional observations from a re-analysis of the deposited data

Results flagged for a closer look

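The log2 ratio of mutant over control for Tgfb2 pointed opposite ways in different cells, with intervals away from 0 on both sides. It was 0.65 in valve endothelial-like cells against −1.26 in arterial endothelial-like cells, and −1.26 in arterial endothelial-like cells against 0.35 in cardiomyocyte-like cells. Inside the valve endothelial-like class it was −0.40 in cluster 7 and 1.26 in cluster 13, and in cluster 7 the lower level lay in female-type mutant cells (56.5 CPM), while male-type mutant cells had 98.0 CPM and female-type control cells 99.0 CPM. Tgfb3 was at −0.21 in valve interstitial-like cells and 0.73 in mural-like cells. Postn was at −1.32 in valve endothelial-like cells against 0.17 in other stromal cells, and at −0.59 in coronary endothelial-like cells against the same 0.17. In other stromal cells Postn stood at 3718 CPM in female-type and 3017 CPM in male-type mutant cells, against 3012 CPM in female-type control cells. Per 1000 stromal marker UMIs, Postn stood at 250 in mutant and 312 in control coronary endothelial-like cells, beside 276 and 216 in macrophage-like cells. With 1 library per genotype none of these differences between cell classes was tested. In lymphatic endothelial-like cells Postn stood at 588 CPM in 30 mutant cells and 53.8 CPM in 40 control cells. However, 1 mutant cell held 87 of the 207 UMIs, and without the top cell of each library the levels were 361 and 46.9 CPM. The 8 stromal markers used in naming clusters also differed there, summing to 1994 CPM in mutant and 199 CPM in control cells. The part of stromal RNA in this Postn difference was not tested.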

How the results depend on the processing

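No paired analysis was possible because there is 1 library per genotype and no result comes from a test. The alternatives were run for valve endothelial-like, coronary endothelial-like, valve interstitial-like and other stromal cells, in which no member's ratio past 1.5-fold changed direction. In valve endothelial-like cells 3 or 4 members were higher and 1 or 2 lower under every alternative run, and in valve interstitial-like cells 1 was higher under all. A floor of 50 CPM left 1 member lower in valve endothelial-like cells, since it removes Tgfbi. The pathway median there was 0.072 in male-type mutant against female-type control cells, an alternative chosen after seeing the data; the cause was not tested. In coronary endothelial-like cells 0 members were lower under a stricter cell filter, no doublet removal, resolution 1.5 and members among the variable genes. The same held for a class per cell, mean per-cell CPM and the same cluster weights in both libraries. There 1 was higher when clustering left out genes that differ between libraries, 2 by mean per-cell CPM and 1 in female-type cells. In other stromal cells 2 were higher under the stricter filter, that clustering, mean per-cell CPM and the same cluster weights in both libraries. For these the cause was not tested. In valve endothelial-like cells the log2 ratios ranged between −1.50 and −1.06 for Postn, −2.83 and −1.42 for Tgfbi, 1.28 and 1.76 for Thbs1, 0.88 and 1.24 for Tgfbr3, 0.64 and 0.79 for Tgfbr1, and 0.37 and 0.83 for Tgfb2, which fell under 1.5-fold in several alternatives. Thbs1 ranged between 0.77 and 0.96 in valve interstitial-like cells and between 0.39 and 1.04 in other stromal cells. Over all settings 464 of the members' log2 ratios stayed within their main counting interval and 49 moved. The levels were less stable, since 427 of the members' CPM values were classed as the same and 149 as moved. For the shares of cells with a UMI, 72 values were classed as moved. Depth limits Tgfb3 in endothelial cells and Tgfbi in mutant valve endothelial-like cells.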

Other observations

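Some small groups of cells fell outside the classes described. Granulocyte-like cells, 42 mutant and 44 control cells led by S100a9, had the highest Thbs1 of all clusters in both libraries, at 690 CPM in mutant and 1324 CPM in control cells, a log2 ratio of −0.94 (−1.22 to −0.66). The direction was opposite to that in valve endothelial-like cells, and no difference between the classes was tested. In epicardial-like cells, 46 mutant and 124 control cells led by Upk3b and Msln, Tgfb2 stood at 237 CPM in mutant and 240.0 CPM in control cells, and Thbs1 at 98.3 and 143 CPM.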
